A study of Oryza sativa Indica Group with 12 samples.

Results

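Probe sets that stood higher in roots of EPAGRI 108 than in roots of BR-IRGA 409, with or without excess Fe, are described here. They were chosen from the log2 expression values of 12 GeneChip Rice Genome Arrays by a rule with 2 conditions. The mean of EPAGRI 108 had to exceed that of BR-IRGA 409 by at least 2 on the log2 scale both under excess Fe and under control Fe, and the lowest of the 6 EPAGRI 108 arrays had to lie above the highest of the 6 BR-IRGA 409 arrays. The rule was met by 205 of 57258 probe sets (0.358%), and the same rule with the cultivars exchanged by 167 (0.292%). Without the condition on size, the 6 EPAGRI 108 arrays lay above the 6 BR-IRGA 409 arrays at 1039 probe sets (1.81%). Because the cultivar difference chose these probe sets, it is given below as a description and carries no test.

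Both cultivars are indica rice grown in southern Brazil, EPAGRI 108 described as tolerant and BR-IRGA 409 as susceptible to Fe toxicity. Plants in hydroponics received FeSO4 from 20 days after germination, for 3 days. The 4 groups, with 3 arrays each, were EPAGRI 108 with excess Fe (500 mg/L), EPAGRI 108 with control Fe (6.5 mg/L), BR-IRGA 409 with excess Fe (500 mg/L) and BR-IRGA 409 with control Fe (6.5 mg/L). The labels call the 3 samples of a group biological replicates, without stating how many plants each held, and 1 cultivar stands for each tolerance class.

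Flooded soils can bring so much soluble Fe to rice roots that it damages the plant, through the reactive oxygen species that Fe helps to form. Plants counter it by keeping Fe out of the root, by binding it in ferritin, by storing it in vacuoles or by detoxifying the oxygen species. A gene whose RNA level differs between cultivars whatever the Fe supply is part of the standing difference between their roots, and may respond to Fe as well. Rice cultivars are known to differ in gene content, with the resistance gene families of the nucleotide-binding leucine-rich repeat (NLR) class among the most variable.

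Levels are the authors' RMA values, in which background was removed, the arrays were brought to a common distribution and the probes of a probe set were combined into 1 log2 value. Array medians were 5.16 to 5.22. The brightest of 23 control probe sets without a rice target read 4.51 to 5.01, depending on the array, and this brightest control level is used below as the limit under which a value is only a bound. Between 30305 and 34108 probe sets of an array lay above it. EPAGRI 108 control replicate 1 stood apart from its group, with 1176 probe sets (2.05%) over 1 log2 unit from the group median, against 15 to 470 on the other 11 arrays. Among the 205 probe sets it was 20, against 0 to 3 on the others. Of the root genes, SHR1 lay between 7.08 and 8.44 on all 12 arrays and SCR1 passed the control level on 8. The chlorophyll-binding protein gene CAB2R, a shoot gene, was also bright. By 1 of its probe sets it read 9.25 to 10.75 in EPAGRI 108 and 11.20 to 12.59 in BR-IRGA 409. Probe sets of the small subunit of ribulose bisphosphate carboxylase, also a shoot marker, were mixed. Some passed the control level on all 12 arrays and others on 0. Of the former, some had higher means in BR-IRGA 409 in both treatments. Another had means of 7.038 (excess Fe) and 7.196 (control) in EPAGRI 108, against 6.955 and 7.276 in BR-IRGA 409. The difference in CAB2R runs opposite to that of the 205 probe sets, and its part in their levels was not tested. In bulk roots, fewer cells of a type and less RNA per cell cannot be told apart.

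Most of the 205 probe sets were dim in BR-IRGA 409. The EPAGRI 108 mean ran from 4.62 to 12.94 with a median of 7.61, against 2.03 to 9.35 with a median of 3.78 in BR-IRGA 409. All 6 BR-IRGA 409 arrays lay at or under the control level at 132 of them (64.4%), as they did at 38.8% of all probe sets. At 120 of the 205 (58.5%) every EPAGRI 108 array lay above the control level and every BR-IRGA 409 array at or under it, a pattern found at 160 probe sets in all (0.279%). Read against the control level, these 120 were at least 1.45-fold to at least 69.8-fold higher in EPAGRI 108, with a median bound of 5.41-fold and a bound of 10-fold or more at 33. Another 39 passed the control level on 1 to 5 BR-IRGA 409 arrays, and 34 were measured above it on all 6. In EPAGRI 108, 193 of the 205 were above it on all 6 arrays, and the other 12, of which 9 have no listed gene, had differences of 2.19 to 5.29. In the exchanged set, 89 of 167 (53.3%) were above it on every BR-IRGA 409 array and at or under it on every EPAGRI 108 array. The rule favours such probe sets, since a large difference needs room below, so these shares describe the set and are not a finding about it.

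**Figure D1:**
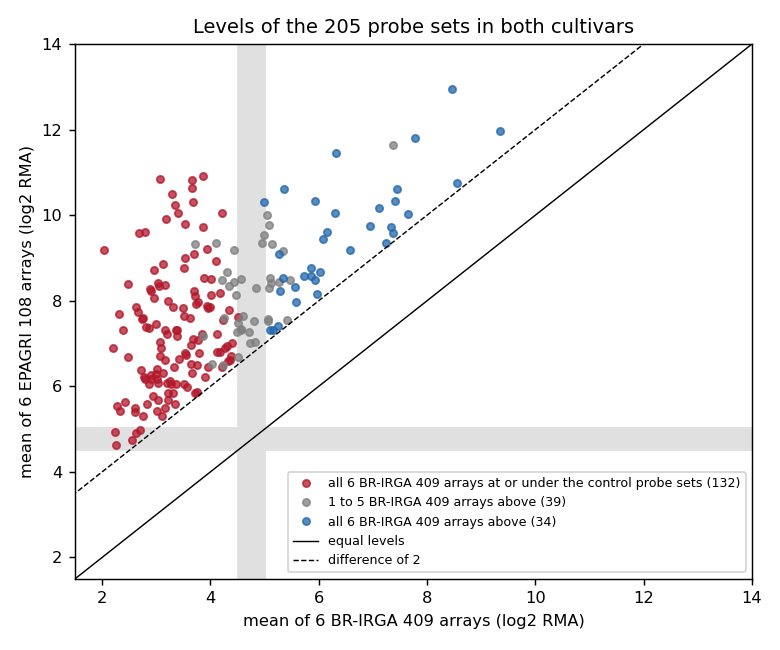
Mean of the 6 EPAGRI 108 arrays (vertical axis, log2 RMA) against the mean of the 6 BR-IRGA 409 arrays (horizontal axis, log2 RMA), 1 point for each of the 205 probe sets. Grey bands give the range of the brightest control level over the arrays, 4.51 to 5.01; 132 points come from probe sets at or under that level on all 6 BR-IRGA 409 arrays.

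The difference, averaged over the 12 arrays, was between 2 and 3 at 76 probe sets, between 3 and 4 at 59, between 4 and 5 at 34, between 5 and 6 at 23, and over 6 at 13. In EPAGRI 108 the mean reached 8 at 88 probe sets, 10 at 23 and 12 at 1, that of pinA. The 3 nearest inside the threshold were Os.681.1.S1_x_at of LOC4324580, with a difference of 3.53 under excess Fe and 2.00 under control Fe, Os.50572.1.S1_at of LOC4352496, with 2.41 and 2.01, and OsAffx.31473.1.S1_at, with 2.01 and 2.32. Nearest outside were Os.14491.1.S1_a_at of LOC4335497, with 1.997 under excess Fe and 2.11 under control Fe, Os.9718.1.S1_at of LOC4352255, with 1.996 and 2.14, and Os.53868.1.S1_at of LOC4344073, with 1.99 and 2.61. Spread within a group was small beside these differences, with a median SD over the 205 of 0.24 and 0.27 in the EPAGRI 108 groups (excess Fe and control) and 0.25 in each BR-IRGA 409 group.

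Few of these probe sets can be given a function. Of the 205, 88 have 1 listed gene (81 genes, of which 76 are protein coding, 3 lncRNA and 2 other RNA), 1 has several and 116 have none listed. A listed gene stands behind 42.9% of them and behind 39.2% of all probe sets, but only 5 of the 81 genes (6.17%) carry a name beyond their number, against 16.3% of all 17905 genes on the array. The names are pinA, HSP18.0, Pikm2, RIXI and OsCASPL1D1. Descriptions in the study's own tables cover 5 probe sets, of which RIXI is 1, so that 9 have any text to classify.

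By that text, 1 of the 8 probe sets of NLR resistance proteins on the array was a member (Pikm2), 1 of the 26 of cell wall enzymes and proteins and 1 of the 7 of protease inhibitors and antimicrobial proteins (RIXI in both), and 1 of the 54 of oxidoreductases (a leucoanthocyanidin reductase). HSP18.0, a small heat shock protein by name, was not caught by the words of the chaperone class. No member fell among the 57 probe sets of metal and Fe handling, the 37 of transporters, the 130 of transcription factors, the 34 of cytochromes P450, the 17 of class III peroxidases, the 15 of glutathione S-transferases or the 4 of lignin and phenylpropanoid synthesis. In the exchanged set the only classes with a member were receptor-like kinases, other protein kinases and protease inhibitors, with 1 each. With text for 4222 probe sets in all, of which 9 are members, these counts cover a small share of the array. Since only 0.358% of all probe sets are members, classes of these sizes can hold none without differing from the array. The words for dirigent proteins matched 0 probe sets, so that class could not be read at all.

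The largest difference belonged to Os.48695.1.S1_s_at, which has no listed gene. Its levels were 11.13, 11.05 and 11.03 with excess Fe and 10.99, 10.35 and 10.47 with control Fe in EPAGRI 108, against 3.12, 2.94 and 2.83 with excess Fe and 3.39, 3.02 and 3.13 with control Fe in BR-IRGA 409. The BR-IRGA 409 arrays were all under the control level, which makes the probe set at least 66.7-fold higher in EPAGRI 108, with a difference of the measured means of 7.77.

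Among annotated genes LOC4329826, which has no name, came first, with 10.33, 10.43 and 10.38 (excess Fe) and 10.47, 10.76 and 10.55 (control) in EPAGRI 108, against 3.72, 3.13 and 3.14 (excess Fe) and 3.43, 3.01 and 3.28 (control) in BR-IRGA 409. It was at least 52.3-fold higher in EPAGRI 108. LOC4341223 had 10.23, 11.15 and 11.15 with excess Fe and 10.32, 11.04 and 11.05 with control Fe in EPAGRI 108, against 3.39, 3.93 and 3.84 with excess Fe and 3.51, 3.38 and 3.88 with control Fe in BR-IRGA 409, at least 66.1-fold higher. Replicate 1 was the lowest of both EPAGRI 108 groups here, yet no array of one cultivar came near those of the other.

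Among annotated genes above the control level on every EPAGRI 108 array, the 15 largest differences spanned 5.14 to 7.20. At 12 of them all 6 BR-IRGA 409 arrays were under the control level, with bounds of at least 7.53-fold to at least 69.8-fold, the last for LOC4325346. By its member probe set LOC4342716 was at least 21.2-fold higher (9.18 against 2.03, means of 6 arrays), LOC4339382 at least 38.6-fold, LOC4350996 at least 12.2-fold, LOC4326000 at least 31.0-fold, LOC4349759 at least 16.9-fold, LOC4352494 at least 7.53-fold, LOC4329821 at least 12.5-fold, LOC4351993 at least 10.9-fold and LOC4325944 at least 15.8-fold. None of these has a name or a description in the annotation used, and each bound holds for the member probe set alone. The remaining 3 passed the control level on at least 1 BR-IRGA 409 array. LOC4348043 and OsCASPL1D1 did so on all 6 and were 40.2-fold and 35.3-fold higher in EPAGRI 108. LOC4348764 did so on only 1, so that its difference of 5.26 rests on BR-IRGA 409 values that are mostly bounds and no fold is given.

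**Figure D2:**
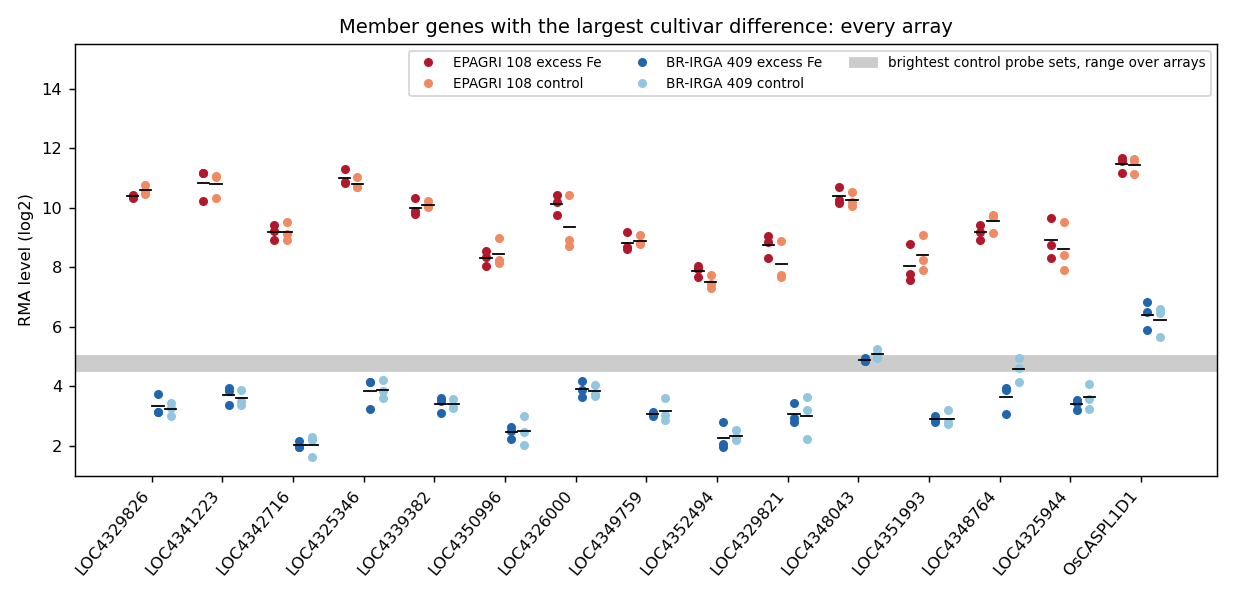
RMA level (log2, vertical axis) on every array for 15 annotated genes with the largest cultivar difference, each with 4 columns of 3 points for EPAGRI 108 excess Fe, EPAGRI 108 control, BR-IRGA 409 excess Fe and BR-IRGA 409 control. Short bars are group means and the grey band is the range of the brightest control level; the cultivar means are 5.14 to 7.20 apart and no gene's cultivars overlap.

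OsCASPL1D1 encodes a CASP-like membrane protein, a relative of the proteins that in Arabidopsis mark out the Casparian strip, the lignin barrier of the endodermis. Its levels were 11.16, 11.56 and 11.68 with excess Fe and 11.14, 11.63 and 11.57 with control Fe in EPAGRI 108, against 5.90, 6.49 and 6.82 with excess Fe and 5.64, 6.58 and 6.45 with control Fe in BR-IRGA 409. Here RNA was measured above the control level on all 12 arrays, and replicate 1 was the lowest in each of the 4 groups.

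The brightest of the 205 was the probe set of pinA, at 13.30, 13.02 and 13.03 with excess Fe and 13.19, 12.49 and 12.60 with control Fe in EPAGRI 108, against 9.53, 8.23 and 8.78 with excess Fe and 8.17, 8.17 and 7.84 with control Fe in BR-IRGA 409. Both cultivars thus carried much signal, 22.4-fold more in EPAGRI 108. In the BR-IRGA 409 excess Fe group replicate 1 was higher than the other arrays of that cultivar.

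Pikm2 is 1 of a pair of NLR genes that together give resistance to the rice blast fungus. By Os.53653.1.S2_at it stood at 8.72, 8.93 and 8.43 with excess Fe and at 8.30, 7.07 and 6.87 with control Fe in EPAGRI 108, against 3.26, 3.13 and 2.60 with excess Fe and 2.92, 2.84 and 3.0 with control Fe in BR-IRGA 409, at least 9.67-fold higher. All BR-IRGA 409 values were under the control level, and in the EPAGRI 108 control group replicate 1 lay with the excess Fe arrays.

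RIXI, a xylanase inhibitor related to chitinases that blocks cell wall degrading enzymes of fungi, had 9.70, 9.83 and 9.81 with excess Fe and 9.22, 6.09 and 5.95 with control Fe in EPAGRI 108, against 5.52, 4.96 and 5.37 with excess Fe and 3.45, 4.09 and 3.25 with control Fe in BR-IRGA 409. The measured means differed by 3.99, but no fold is given, since the 3 BR-IRGA 409 control arrays lay under the control level. The EPAGRI 108 control group again split, replicate 1 high and the other 2 arrays barely above the BR-IRGA 409 arrays with excess Fe.

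HSP18.0 is named for the small heat shock proteins, chaperones that hold unfolding proteins. Its member probe set Os.31700.1.S1_at read 8.54, 8.50 and 8.56 with excess Fe and 8.74, 8.44 and 8.32 with control Fe in EPAGRI 108, against 4.01, 3.67 and 4.15 with excess Fe and 4.53, 4.02 and 3.62 with control Fe in BR-IRGA 409, at least 13.3-fold higher. The cultivars did not overlap, and neither Fe level set the EPAGRI 108 arrays apart.

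Other probe sets of the same genes, which the rule did not use, often read differently. Of the 81 genes, 30 have at least 2 probe sets. All were members at 5 genes, and 25 genes have 34 further probe sets that were not. Of these 34, 11 were higher in EPAGRI 108 by at least 1, 20 differed by less than 1 and 3 were higher in BR-IRGA 409 by at least 1, with a median difference of 0.37. By comparison, 1.03% of all probe sets were higher in EPAGRI 108 by at least 1 and 98.0% differed by less than 1. Of the 20 with small differences, 10 were above the control level on all 12 arrays, of which 6 carry the suffix _s_at or _x_at, which marks probes that can also match other transcripts. Of the 34, 9 were at or under the control level on all 12 arrays and could show no difference.

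LOC4325346 shows how far probe sets of a gene can differ. Os.3777.1.S1_at, a member, read 11.31, 10.85 and 10.83 with excess Fe and 11.02, 10.70 and 10.71 with control Fe in EPAGRI 108, against 4.15, 3.23 and 4.15 with excess Fe and 4.23, 3.60 and 3.84 with control Fe in BR-IRGA 409. Os.3777.1.S1_s_at of the same gene read 9.32, 9.46 and 9.48 with excess Fe and 9.26, 9.40 and 9.48 with control Fe in EPAGRI 108, against 8.80, 9.02 and 8.95 with excess Fe and 8.68, 8.70 and 8.65 with control Fe in BR-IRGA 409. The differences were 7.04 and 0.60. One probe set thus places the gene under the control level in BR-IRGA 409 and the other, with the suffix _s_at, well above it.

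For HSP18.0 the further probe sets differed by 0.40 (Os.31700.2.S1_s_at) and 2.44 (Os.519.1.S1_at). The last of these read 9.67, 10.05 and 9.84 with excess Fe and 9.48, 8.89 and 8.64 with control Fe in EPAGRI 108, against 8.53, 9.73 and 8.62 with excess Fe and 4.90, 4.92 and 5.20 with control Fe in BR-IRGA 409, so the cultivars overlapped with excess Fe only. Pikm2 differed by 5.09 at the member and by 1.41 at Os.53653.1.S1_at, which was above the control level on 11 of 12 arrays. LOC4351993 differed by 5.32 at the member and by 1.04 at Os.22682.1.S1_a_at, and LOC4348764 by 5.26 at the member and by 1.91 at Os.46565.2.S1_x_at, both further probe sets being above the control level on all 12 arrays.

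At 2 genes the probe sets met opposite rules. LOC4334655 was higher in EPAGRI 108 by 3.03 at Os.30021.1.S1_at and lower by 2.46 at Os.30021.2.S1_at, where the levels were 7.16, 6.72 and 6.61 with excess Fe and 7.10, 6.68 and 6.89 with control Fe in EPAGRI 108, against 9.18, 8.99 and 9.04 with excess Fe and 9.70, 9.58 and 9.48 with control Fe in BR-IRGA 409. LOC4352059 was higher by 2.10 at Os.24326.1.A1_s_at and lower by 2.42 at Os.54513.1.S1_at. LOC4329821 came near this, with differences of 5.38 and -1.06. For such genes the array gives no single direction. A difference in RNA amount and a difference in how well a transcript matches its probes cannot be told apart by these values.

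**Figure D3:**
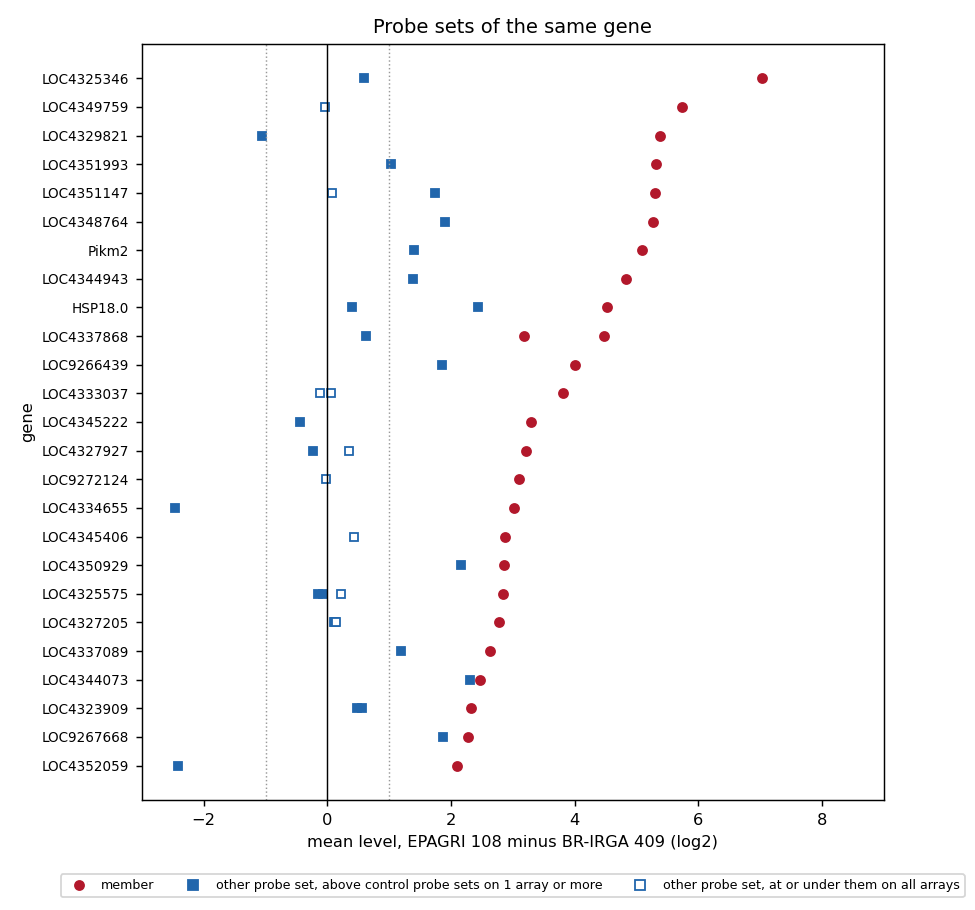
Mean level in EPAGRI 108 minus BR-IRGA 409 (log2, horizontal axis) for the probe sets of the 25 genes that have both members (red circles) and further probe sets (blue squares, open where all 12 arrays lay at or under the brightest control level). Dotted lines mark differences of 1 and -1; 20 of the 34 squares lie between them and 2, at LOC4334655 and LOC4352059, lie below -2.

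By the suffix and prefix of their names the members compared with the array as follows. The share with the plain suffix _at was 76.6% (80.1% of all), that with _s_at 8.29% (4.94%), with _x_at 12.7% (12.5%) and with _a_at 2.44% (2.46%). The prefix OsAffx was rarer, at 13.7% of members against 44.5% of all probe sets and 27.1% of the 28930 probe sets that were above the control level on every EPAGRI 108 array. By the stem of their names the 205 fall into 183 design clusters, of which 21 hold at least 2 members (43 members), so members of a cluster are not independent readings.

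Many of the member genes lie close to each other in the genome. In the gene order of the RefSeq assembly ASM3414082v1, 38 of the 81 genes (46.9%) had another member gene within 10 annotated genes, against 2.95% of all 17905 genes on the array. In the exchanged set it was 10 of 76 (13.2%, against 3.39% of all genes). A gene of the exchanged set lay within 10 genes of 12 of the 81 member genes (14.8%, against 3.39%). The 38 genes form 17 stretches, 4 with 3 member genes and 13 with 2. Whether the gene order of this assembly holds in either cultivar was not tested.

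Genes between the members differed little between the cultivars, as did most of the array. The stretches hold 13 probe sets of genes in between, all with a difference under 1, as at 98% of all probe sets. Of the 13, 2 were at or under the control level on all 12 arrays. A gene in between that met the rule would itself count as a member, so this only describes the stretches. In the stretch from LOC4339380 (difference 2.16) over LOC4339382 (6.65) to LOC4339386 (2.51), the genes LOC9266102 and LOC4339385 in between differed by 0.14 and 0.95. LOC4348040, LOC4348043 and LOC4348044 form a stretch with differences of 3.99, 5.33 and 3.38.

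The stretch that ends in Pikm2 starts with LOC4351147, described in the study's tables as a von Willebrand factor type A domain protein (LOC_Os11g46000), with LOC4351148 in the middle. At LOC4351148 the levels were 8.03, 7.89 and 7.74 with excess Fe and 8.04, 8.15 and 8.15 with control Fe in EPAGRI 108, against 3.58, 3.35 and 3.73 with excess Fe and 2.76, 2.64 and 3.20 with control Fe in BR-IRGA 409, at least 9.33-fold higher. LOC4351146, which flanks the stretch, was lower in EPAGRI 108 by 2.35 at 1 probe set and higher by 1.48 at the other. The 3 member probe sets were under the control level in BR-IRGA 409, with differences between 4.79 and 5.29, but LOC4351147 and Pikm2 each have a further probe set that was not. Os.5809.1.S1_s_at of LOC4351147 read 8.35, 9.75 and 7.82 with excess Fe and 7.33, 3.86 and 3.88 with control Fe in EPAGRI 108, against 7.23, 7.61 and 6.30 with excess Fe and 3.25, 3.07 and 3.06 with control Fe in BR-IRGA 409. There the cultivar means differed by 1.75 and the arrays of the cultivars overlapped.

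The stretch from LOC4352055 (difference 4.58) holds LOC4352057, an lncRNA gene with 3 members (2.31, 3.27 and 2.77), and LOC4352059, the gene whose probe sets point in opposite directions, while LOC4352058 in between differed by 0.46. Elsewhere HSP18.0 and LOC4325346 share a stretch, as do LOC4329821 and LOC4329826, and LOC4343096 and OsCASPL1D1. pinA and LOC4326000 are neighbours. The gene beyond them, RBTI of the Bowman-Birk trypsin inhibitors, which block digestive proteases, was bright in both cultivars, with means of 12.77 in EPAGRI 108 and 11.65 in BR-IRGA 409.

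**Figure D4:**
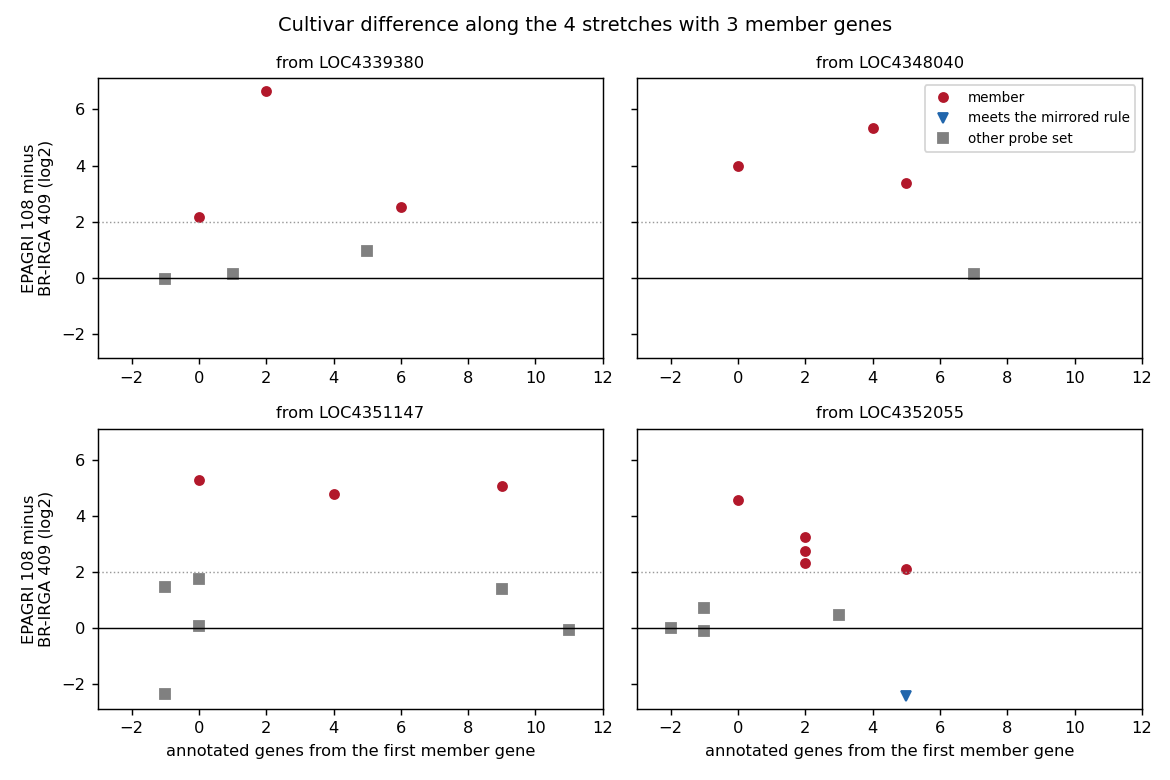
EPAGRI 108 minus BR-IRGA 409 (log2, vertical axis) by place in the gene order (horizontal axis, annotated genes from the first member gene) for the 4 stretches with 3 member genes. Red circles are members, the blue triangle is the probe set of LOC4352059 that met the exchanged rule, and grey squares are other probe sets of the same or neighbouring genes, with the dotted line at the threshold of 2.

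Excess Fe was a separate comparison, and the members were read from a limma fit to all probe sets with a call at an adjusted p under 0.05 and at least 3-fold. The rule keeps the 6 EPAGRI 108 arrays above the 6 BR-IRGA 409 arrays. It thus works against a large fall in EPAGRI 108 or a large rise in BR-IRGA 409, but not against the reverse. The counts are therefore read only beside those of all probe sets. In EPAGRI 108 the direction by the array labels is opposite to that in the study's tables, and it is given here by the labels. By these, 1 member was higher with excess Fe in EPAGRI 108 (0.488%, against 0.283% of all probe sets) and 0 were lower (0.0227% of all). In BR-IRGA 409, 4 were higher (1.95%, against 1.1%) and 0 lower (0.25%). At an unadjusted limma p under 0.05 there were 43 members in EPAGRI 108 and 36 in BR-IRGA 409. The share of all probe sets for these totals is not given here. Of the 43, 9 were lower (4.39% of the members, against 5.29% of all probe sets). Of the 36, 12 were lower (5.85%, against 9.77%), so in both cultivars most were higher. The methods' t-test at its 3-fold threshold called 0 lower in either cultivar. The share of all probe sets by that test is not given here, so no direction is read from this count. At any fold, limma gave an adjusted p under 0.05 to 7 members (3.41%, against 0.992%) in EPAGRI 108 and to 16 (7.8%, against 7.64%) in BR-IRGA 409. With the same-numbered arrays of a cultivar taken as pairs, the EPAGRI 108 count was 0, among the members and among all probe sets (58 members at an unadjusted limma p under 0.05), and with the numbers as pairs over all 4 groups it was 19 (9.27%, against 1.72%). The median response was 0.01 in EPAGRI 108 and -0.01 in BR-IRGA 409, and 91.7% and 95.6% of the members responded by less than 1, against 98.5% and 96.7% of all probe sets.

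The probe set called in both its BR-IRGA 409 response and the interaction was Os.22968.1.A1_at, described in the study's tables only as an expressed protein (LOC_Os08g24200). It read 11.82, 12.51 and 12.43 with excess Fe and 11.43, 10.94 and 10.76 with control Fe in EPAGRI 108, against 9.37, 10.22 and 9.19 with excess Fe and 5.38, 5.56 and 4.51 with control Fe in BR-IRGA 409. BR-IRGA 409 thus gained most of its signal with excess Fe and still stayed under every EPAGRI 108 array. Its control arrays were near the control level, which was 4.82, 4.92 and 4.93 on replicates 1, 2 and 3. Replicate 3 lay under it, so the size of the rise rests partly on a bound. By limma it rose in BR-IRGA 409 by 4.44 (SE 0.32, adjusted p = 9.74e-06), while the EPAGRI 108 response of 1.21 (SE 0.32) missed the threshold (adjusted p = 0.103).

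The interaction, EPAGRI 108 response minus BR-IRGA 409 response, was -3.23 at this probe set by limma (SE 0.45, adjusted p = 0.0110), the 1 member called among 49 probe sets with a lower response in EPAGRI 108 (0.0856% of all), and 0 members were among the 31 with a higher one (0.0541%). At an unadjusted limma p under 0.05 the interaction gave 32 members. Of these, 19 had a higher response in EPAGRI 108 (9.27% of members, against 2.2% of all probe sets). The others had a lower one. The share of all probe sets is not given here for the total or for a lower response, so the directions are not compared. At 132 of the 205 members all 6 BR-IRGA 409 arrays lay at or under the control level. A BR-IRGA 409 response cannot be read there, so these counts do not show whether the cultivars responded differently. The call of the 1 member was lost with 16 added to the linear values (-2.71, adjusted p = 0.0598), while the adjusted p over all other settings was 0.00673 to 0.0332. With the same-numbered arrays of a cultivar taken as pairs, LOC4344126 was called as well (-1.83, limma adjusted p = 0.00348), which had missed the threshold without pairs (adjusted p = 0.0966). The rule asks both cultivar differences to reach 2 but sets no upper limit on either, so it does not confine the interaction to a range. The interaction was under 1 in size at 88.8% of members, against 98.9% of all probe sets. The interaction and the 2 responses are computed from the same arrays.

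LOC4344126, which has no name, was at 9.96, 9.70 and 9.43 with excess Fe and 9.48, 8.74 and 8.63 with control Fe in EPAGRI 108, against 6.83, 6.05 and 6.42 with excess Fe and 4.10, 3.50 and 3.96 with control Fe in BR-IRGA 409. It rose in BR-IRGA 409 by 2.58 (SE 0.25, limma adjusted p = 0.000109), where the 3 control arrays were all under the control probe sets, and by 0.75 in EPAGRI 108 (SE 0.25, adjusted p = 0.249), which was no call.

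LOC4337101 is listed in the study's tables as a leucoanthocyanidin reductase (LOC_Os04g53860), an enzyme of proanthocyanidin synthesis. Its levels were 10.83, 11.06 and 11.36 with excess Fe and 10.27, 9.40 and 9.04 with control Fe in EPAGRI 108, against 8.80, 8.24 and 8.39 with excess Fe and 6.49, 6.28 and 6.21 with control Fe in BR-IRGA 409. All 4 groups kept apart, in the order BR-IRGA 409 control, BR-IRGA 409 excess Fe, EPAGRI 108 control and EPAGRI 108 excess Fe. By limma it rose by 2.15 in BR-IRGA 409 (SE 0.26, adjusted p = 0.000420), and in EPAGRI 108 the response was 1.51 (SE 0.26, adjusted p = 0.0392, and 0.0712 with the arrays of a cultivar as pairs), under 3-fold.

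LOC4341417, an RNA gene in RefSeq and an expressed protein in the study's tables (LOC_Os06g39120), had the same order, with 12.15, 12.49 and 13.09 for excess Fe and 11.79, 10.69 and 10.58 for control Fe in EPAGRI 108, against 9.18, 8.63 and 8.69 for excess Fe and 6.88, 6.91 and 6.35 for control Fe in BR-IRGA 409. Its rise in BR-IRGA 409 was 2.12 (SE 0.32, limma adjusted p = 0.00155). Here too the EPAGRI 108 response, 1.56 (SE 0.32, adjusted p = 0.0459, and 0.0758 with the arrays of a cultivar as pairs), was under 3-fold.

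Os.19575.1.A1_at, without a listed gene, was the 1 member called in EPAGRI 108, at 8.68, 9.36 and 8.78 with excess Fe and 7.75, 6.59 and 6.10 with control Fe. BR-IRGA 409 stayed under the control level, at 3.71, 4.29 and 3.86 with excess Fe and 3.86, 3.53 and 4.34 with control Fe. The EPAGRI 108 response was 2.13 (SE 0.36, limma adjusted p = 0.0355). The call was lost with the same-numbered arrays of a cultivar as pairs (adjusted p = 0.0712), and the interaction of 2.09 was not called (adjusted p = 0.261).

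Larger EPAGRI 108 responses were measured at LOC4351147 and RIXI, without a call. LOC4351147 read 10.22, 11.52 and 9.51 with excess Fe and 9.40, 4.98 and 4.39 with control Fe in EPAGRI 108, against 4.08, 3.75 and 3.30 with excess Fe and 2.42, 1.95 and 2.78 with control Fe in BR-IRGA 409, a response of 4.16 in EPAGRI 108 (SE 0.99, limma adjusted p = 0.0695). At RIXI the response was 2.69 (SE 0.64, adjusted p = 0.0703). In both, EPAGRI 108 control replicate 1 stood with the excess Fe arrays and apart from the other control arrays.

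Without that array 12 members were called in EPAGRI 108, all higher with excess Fe, LOC4351147 (5.73, adjusted p = 3.84e-05), RIXI (3.76, adjusted p = 1.09e-05) and Pikm2 (1.72, adjusted p = 0.000325) among them, and 10 in the interaction, by the same limma fit. Without EPAGRI 108 excess Fe replicate 1 it was 4 in EPAGRI 108, and without any 1 of the other 10 arrays 0. The counts over all probe sets in these fits are not given here. The member counts are therefore read only as a dependence on single arrays, not as a trait of the members. The lowest single level of an EPAGRI 108 array was that of LOC4334786 on excess Fe replicate 2, 3.23, where the other 2 arrays of the group had 8.30 and 8.61.

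**Figure D5:**
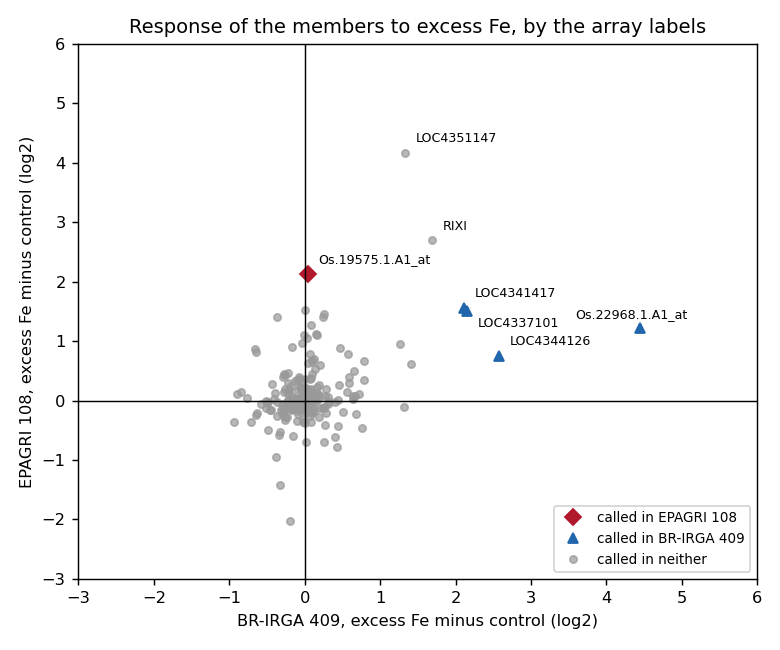
Response to excess Fe (excess Fe minus control, log2, by the array labels) in EPAGRI 108 (vertical axis) and in BR-IRGA 409 (horizontal axis) for the 205 probe sets. Most points lie within 1 of both zero lines; the 4 called in BR-IRGA 409 (triangles) lie between 2.12 and 4.44 there, and the 1 called in EPAGRI 108 (diamond) at 2.13.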

How the data were processed

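The deposited values are the authors' RMA values on the log2 scale, computed in ArrayAssist after scanning with GCOS 1.2.1, 1 value per probe set and array. A fixed quantity that the methods add later, of unstated size, is not part of them. Of 57381 probe sets, the 123 controls were left out. Members and lists were chosen with earlier results of these data known. A model with 1 mean per group used all 12 arrays, leaving 8 residual degrees of freedom (limma 3.58.1, R 4.3.3), and p-values were adjusted by Benjamini-Hochberg over 57258 probe sets. Unless the t-test is named, an adjusted p is limma's. The number of arrays limits the precision.

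Genes were taken from the platform annotation and RefSeq tables (ASM3414082v1), without coordinates. Named are the 15 genes with the largest difference among those above the control level on every EPAGRI 108 array, up to 3 members of each class, members called in an Fe response, the longest stretches, the probe sets nearest the threshold and genes named in the paper. pinA, HSP18.0, Os.48695.1.S1_s_at and the further probe sets were named after their values were seen. Deviations of same-numbered arrays from their group means correlated at 0.454, 0.302 and 0.151 within EPAGRI 108 and at 0.490, 0.209 and 0.108 within BR-IRGA 409, all over 0.1. The labels state no pairing, so the pairing comes from the values alone. Alternatives were the replicate block, 16 added to the linear values, each array's median subtracted, other thresholds, a filter on dim probe sets, the methods' t-test and each array left out. The fit was tested on simulated data. Tables used Python 3.11.15 and pandas 2.3.3, figures matplotlib 3.10.9.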

Additional observations from a re-analysis of the deposited data

Results flagged for a closer look

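The response to excess Fe differed between the cultivars at Os.22968.1.A1_at by the limma interaction test, with an EPAGRI 108 response minus BR-IRGA 409 response of -3.23 (SE 0.45, adjusted p = 0.0110). With 16 added to the linear values it was -2.71 and missed the threshold (adjusted p = 0.0598). BR-IRGA 409 control replicate 3 lay under the control level at this probe set, so the size of the difference rests partly on a bound. The EPAGRI 108 response is taken by the array labels, whose direction in that cultivar is opposite to the study's tables. Single outlying values were sought only as the count, for each array, of probe sets over 1 log2 unit from the group median.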

How the results depend on the processing

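The number of probe sets higher in EPAGRI 108 in both treatments, 205 in the report, was 129 with 16 added to the linear values, 134 with values under the control level set to it, 417 with a difference of at least 1 and 114 with at least 3. It stayed within 1.5 times under the other settings, among them the exchange of the EPAGRI 108 treatment labels (200, of which 193 are shared), and leaving out 1 array gave 194 to 213. Calls in EPAGRI 108 (1 in the report) were 0 with 16 added, 0 with the replicate block within each cultivar, 0 by the methods' t-test after adjustment and 7 with no minimum fold, and 0 to 12 with 1 array left out, 12 without EPAGRI 108 control replicate 1. In BR-IRGA 409 the 4 calls became 16 with no minimum fold and 4 to 5 with 1 array left out. In the interaction the 1 call became 0 with 16 added, 2 with the replicate block within each cultivar or over all 4 groups, and 1 to 10 with 1 array left out, 10 again without EPAGRI 108 control replicate 1. Of 81 genes, 28 had another member gene within 5 annotated genes and 46 within 20, windows chosen after seeing the data, against 38 within 10. Of the values of single probe sets, 570 kept their direction and call or moved by less than the spread between replicates, 31 moved by more, 15 lost their call and 0 reversed. Low signal limits the folds, since 132 members give only a bound in BR-IRGA 409.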
